A study of Homo sapiens with 30 samples.

Results

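The genes described are 9 amino acid transporters of the plasma membrane, SLC7A1, SLC7A11, SLC1A4, SLC1A5, SLC38A1, SLC38A2, SLC38A5, SLC6A9 and SLC43A1, whose RNA was followed in cancer cells treated with Omomyc. They were taken by gene symbol from the 57992 genes of an RNA-Seq table, and all 9 had a row. Omomyc is a miniprotein derived from the basic helix-loop-helix leucine zipper region of the transcription factor Myc and blocks Myc activity. The libraries came from HCT116 cells, an established colon carcinoma line labeled as having stabilized MYC, and from Ramos cells, an established Burkitt's lymphoma line labeled as having a MYC translocation. HCT116 cells were untreated or received 2 or 10 µM Omomyc for 6 or 24 h, and Ramos cells were untreated or received 0.5 or 2.5 µM Omomyc for 6 or 24 h. Each of the 10 groups had 3 replicates. The lower HCT116 dose is 2 µM in the labels and another value near it in the methods of the study, so it is called the 2 µM dose here. A time tag of 4 h stands beside titles that give 24 h, and the titles were used. The untreated group of each line has no time point and serves both times, so all comparisons with it share its 3 libraries. According to the methods, Omomyc was given to HCT116 cells with the protein transfection reagent ProteoJuice, and whether the untreated cells received that reagent is not given in the sources used here, so reagent and Omomyc cannot be told apart.

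Amino acid transporters set which building blocks a cell can take up, and they fall into groups by what they carry. SLC7A11 (xCT) is the light chain of the exchanger that brings in cystine for glutathione synthesis and releases glutamate. SLC1A4 (ASCT1) and SLC1A5 (ASCT2) exchange small neutral amino acids in a sodium-dependent way, and SLC1A5 is best known for glutamine. SLC38A1 (SNAT1), SLC38A2 (SNAT2) and SLC38A5 (SNAT5) couple neutral amino acids, glutamine among them, to sodium. SLC7A1 (CAT1) carries arginine and lysine, SLC6A9 (GlyT1) carries glycine, and SLC43A1 (LAT3) carries large neutral amino acids such as leucine. Several of these genes are known targets of ATF4, the transcription factor of the amino acid response, and Myc is known to act on genes of glutamine uptake.

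Levels are RPKM, which are scaled for gene length and library, so they can be set side by side between genes. The labels do not say whether replicates were separate cultures, so p-values measure the spread between these libraries, which may be technical. The summed RPKM of a library differed with treatment. In HCT116 cells it ran from 593633 to 660769 untreated, from 742468 to 836899 at 2 µM and 6 h, and from 791845 to 1051041 at 10 µM and 6 h. At 24 h it was 669145 to 703766 at 2 µM and 659047 to 729627 at 10 µM. In Ramos cells it ran from 879661 to 973736 untreated, and at 2.5 µM from 832655 to 844605 at 6 h and from 783788 to 828045 at 24 h. Both 0.5 µM groups overlapped with untreated Ramos cells. Replicate 3 of 10 µM Omomyc at 6 h had the highest sum. The 13 mRNAs of the mitochondrial genome made up 0.399 to 0.518% of the sum in untreated HCT116 cells, 0.815 to 3.10% in treated HCT116 cells and 0.190 to 0.271% in Ramos cells, and the part of this difference in the results below was not tested. Of 6 colon epithelial markers, EPCAM, KRT8, KRT18 and CDH1 were present in every HCT116 library, VIL1 did not exceed 0.0602 RPKM and CDX1 was listed at 0. The B cell markers MS4A1, CD79A, CD79B, PAX5 and CD22 were at 38.6 RPKM or more in every Ramos library. In bulk RNA of this kind, fewer cells of a type and less RNA per cell cannot be told apart.

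The transporter repertoires of the untreated lines differed. SLC38A2, SLC1A5 and SLC38A1 were the most abundant of the 9 in HCT116 cells, at means of 193, 112 and 70.4 RPKM, whereas SLC1A5, SLC38A1 and SLC38A5 led in Ramos cells, at 102, 89.7 and 49.2 RPKM. SLC38A2 stood at 196, 196 and 186 RPKM in the 3 untreated HCT116 libraries and at 7.32, 6.68 and 6.67 RPKM in those of Ramos cells. SLC43A1 showed the opposite order, with 2.97, 2.84 and 3.13 RPKM in HCT116 cells and 33.1, 34.1 and 35.4 RPKM in Ramos cells. SLC1A4 was at 4.52, 4.79 and 4.41 RPKM in HCT116 cells and at 43.8, 39.8 and 43.6 RPKM in Ramos cells. None of the 9 genes overlapped between the untreated lines, so the separation was not particular to these 3. How many of all genes separate in this way was not counted. The cystine transporter SLC7A11 was higher in HCT116 cells (20.7 ± 1.43 RPKM, SD, n = 3) than in Ramos cells (6.52 ± 0.153), and SLC38A5 was lower (15.8 ± 0.253 against 49.2 ± 4.84).

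All 9 genes passed the test between the untreated lines (limma on log2(RPKM + 0.5), Benjamini-Hochberg adjusted p under 0.05), in a comparison in which 84.6% of all genes tested passed. The log2 difference of HCT116 from Ramos cells was 4.71 (SE 0.051) for SLC38A2, 1.60 (SE 0.064) for SLC7A11, -3.32 (SE 0.058) for SLC43A1, -3.08 (SE 0.060) for SLC1A4 and -1.60 (SE 0.074) for SLC38A5, with adjusted p between 8.25e-10 and 7.56e-07. SLC7A1 (0.39) and SLC1A5 (0.14) were higher in HCT116 cells by smaller amounts. SLC6A9 (-0.50) and SLC38A1 (-0.35) were lower, but after scaling all libraries to the same summed RPKM (called an equal sum of RPKM) the difference of SLC38A1 turned to 0.23 and that of SLC6A9 came to -0.00058. That rescaling moves the median of all genes in this comparison from 0.086 to 0.650. An exact permutation test on 3 against 3 libraries, two-sided, cannot go below p = 0.1, which is the value of each of the 9 genes.

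**Figure D1:**
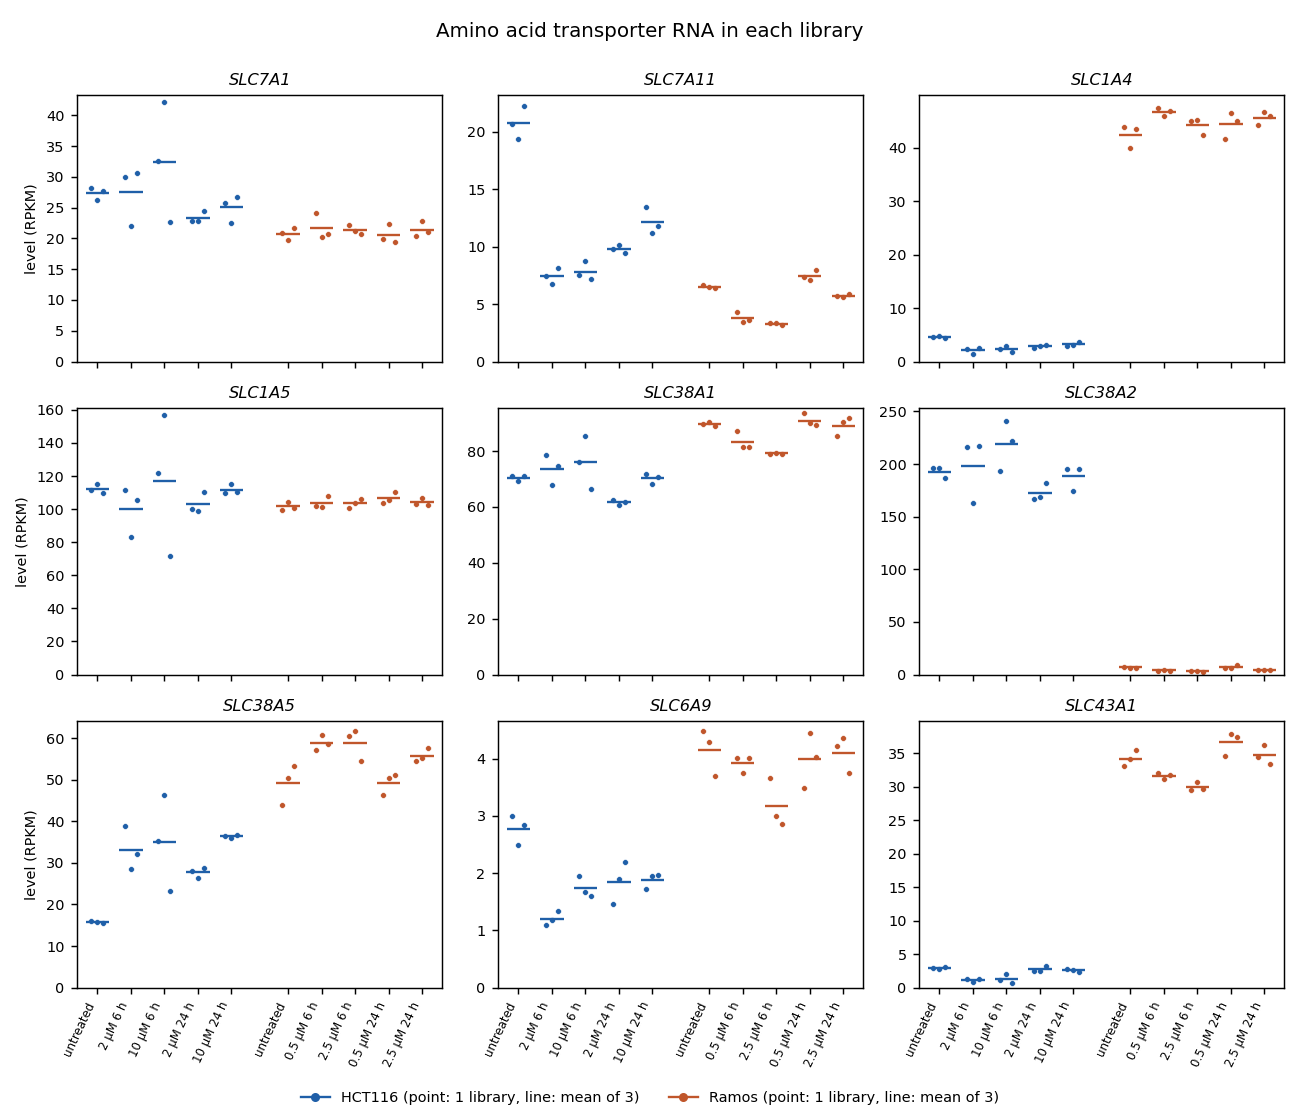
RPKM of each transporter (y axis, linear, from 0) in the 10 groups (x axis); a point is 1 library and a line the mean of 3. SLC7A11 falls from 20.7 to between 7.43 and 12.2 RPKM in the treated HCT116 groups while SLC38A5 goes from 15.8 to between 27.7 and 36.4, and SLC38A2 is at 163 to 241 RPKM in HCT116 cells but at 2.78 to 8.61 in Ramos cells.

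In the annotation of GENCODE release 29 on GRCh38, SLC7A11 lies at chr4:138164097-138242349 on the minus strand, SLC1A4 at chr2:64988477-65023865 on the plus strand and SLC1A5 at chr19:46774883-46788594 on the minus strand. SLC38A1 (chr12:46183063-46270017) and SLC38A2 (chr12:46358189-46372867) are neighbors on the minus strand of chromosome 12. SLC38A5 (chrX:48458537-48470256), SLC43A1 (chr11:57484534-57515786), SLC7A1 (chr13:29509410-29595688) and SLC6A9 (chr1:43991500-44031467) also lie on minus strands. Genes on the other strand overlap SLC7A11 (SLC7A11-AS1), SLC38A2 (AC025031.2) and SLC6A9 (CCDC24). The libraries were prepared with a stranded kit, but whether strand was used in counting is not given in the sources used here, so reads of these genes and their partners might not be separated.

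Because Myc and Omomyc bind the E box, the 250 bases before the RefSeq start of each gene on GRCh38.p14 were searched for its core CACGTG on both strands. The RefSeq start can differ from the end of the gene in GENCODE given above, by 3501 bases for SLC38A1, whose window lies inside that gene, by 94 for SLC38A2, 84 for SLC43A1 and 5 or fewer for the others. Of the 9 genes, 8 had an entry, and SLC7A11 had none. The E box was found once each before SLC38A5 and SLC43A1, the member that rose in HCT116 cells and one of those that fell. It was found in 2228 (6.35%) of 35116 promoter windows of the same length. These windows are shown with the E box in capitals, 5′ to 3′ on the strand of the gene, for SLC38A5 at chrX:48470261-48470510 and for SLC43A1 at chr11:57515703-57515952, both on the minus strand.
SLC38A5: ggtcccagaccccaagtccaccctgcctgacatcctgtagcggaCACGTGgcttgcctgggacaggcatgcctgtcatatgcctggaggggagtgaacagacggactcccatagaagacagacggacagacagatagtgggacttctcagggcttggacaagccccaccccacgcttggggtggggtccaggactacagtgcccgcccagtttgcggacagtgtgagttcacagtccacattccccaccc
SLC43A1: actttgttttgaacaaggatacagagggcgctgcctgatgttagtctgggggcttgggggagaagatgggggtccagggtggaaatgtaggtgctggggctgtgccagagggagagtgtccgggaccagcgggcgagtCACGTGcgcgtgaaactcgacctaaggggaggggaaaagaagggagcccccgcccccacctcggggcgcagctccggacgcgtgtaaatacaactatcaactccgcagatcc
The first base of the E box lies 206 bases before the start of SLC38A5 and 112 bases before that of SLC43A1. The element TGATGNAA of the amino acid response was in none of the 8 windows and in 3.14% of all windows. The antioxidant element TGACNNNGC was in the window of SLC7A1 and in 10.9% of all windows. A match is a description of letters, not of binding, and none was tested for use in these cells. The study reports that Omomyc also bound E boxes with an altered core in vitro. Such variants were not searched, so a window without CACGTG was not shown to lack them.

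In HCT116 cells after 6 h, the cystine transporter SLC7A11, the neutral amino acid exchanger SLC1A4, the glycine transporter SLC6A9 and the leucine transporter SLC43A1 fell, and the glutamine transporter SLC38A5 rose. SLC7A11 went from 20.7, 19.3 and 22.2 RPKM in untreated cells to 7.43, 6.74 and 8.13 RPKM at 2 µM and to 7.54, 8.72 and 7.16 RPKM at 10 µM. No treated library reached the lowest untreated one at either dose. This was a 2.68-fold fall at 2 µM (log2 fold change -1.42, SE 0.090, limma adjusted p = 1.17e-05) and a 2.56-fold fall at 10 µM (-1.36, SE 0.11, limma adjusted p = 0.000540).

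SLC1A4 was at 2.27, 1.49 and 2.46 RPKM at 2 µM and 2.43, 2.93 and 1.69 RPKM at 10 µM, against 4.41 to 4.79 RPKM in untreated cells. SLC43A1 was at 1.32, 0.899 and 1.23 RPKM at 2 µM and 1.21, 1.97 and 0.716 RPKM at 10 µM, against 2.84 to 3.13 RPKM. SLC6A9 was at 1.09, 1.17 and 1.33 RPKM at 2 µM and 1.96, 1.67 and 1.60 RPKM at 10 µM, against 2.49 to 3.0 RPKM. Each of these genes was lower in every treated library than in every untreated one. Their log2 fold changes at 2 µM were -1.0 (SE 0.15) for SLC1A4, -1.09 (SE 0.14) for SLC43A1 and -0.95 (SE 0.13) for SLC6A9, and at 10 µM -0.86, -1.01 and -0.55. SLC38A5 moved the other way, from 16.0, 15.9 and 15.5 RPKM to 38.8, 28.4 and 32.2 RPKM at 2 µM and to 35.3, 46.4 and 23.3 RPKM at 10 µM. This was a 2.05-fold rise at 2 µM (1.04, SE 0.10, limma adjusted p = 0.000106) and a 2.10-fold rise at 10 µM (1.07, SE 0.22, limma adjusted p = 0.0118).

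At 6 h the other 4 transporters, SLC7A1, SLC1A5, SLC38A1 and SLC38A2, did not pass at either dose. Their untreated and treated libraries overlapped. The 95% interval of the log2 change at 2 µM was -0.27 to 0.26 for SLC7A1, -0.40 to 0.055 for SLC1A5, -0.09 to 0.22 for SLC38A1 and -0.21 to 0.27 for SLC38A2. Thus 5 of the 9 genes passed at each dose, 4 lower and 1 higher, where 47.3% of all genes tested passed at 2 µM and 30% at 10 µM. The median log2 change was -0.17 over the members and -0.12 over all genes at 2 µM, and -0.014 and -0.11 at 10 µM.

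The calls at 10 µM and 6 h rested in part on single libraries. Replicate 3 of that group had the highest summed RPKM and the lowest SLC1A5 level (71.9 RPKM, against 122 and 157 RPKM in the other replicates of the group). Without that library 8 of the 9 genes passed, and without untreated replicate 1, 2 or 3 the number was 3, 2 and 2. SLC7A11 passed in all 6 fits that left out 1 library, SLC1A4 and SLC38A5 in 5 each, and SLC6A9 and SLC43A1 in 2 each. With an equal sum of RPKM the rise of SLC38A5 at 10 µM was 0.59 and did not pass (limma adjusted p = 0.128, within a range of 7.87e-07 to 0.128 over its alternatives). That rescaling shifts the median of all genes from -0.117 to -0.421 at 2 µM and from -0.112 to -0.558 at 10 µM, and under it all 9 genes passed at 2 µM, with SLC38A1 (-0.27) and SLC38A2 (-0.31) then lower than in untreated cells.

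After 24 h, SLC7A11, SLC1A4 and SLC6A9 were still below and SLC38A5 above untreated HCT116 cells at both doses, whereas SLC43A1 overlapped with its untreated level. SLC7A11 was at 9.78, 10.1 and 9.46 RPKM at 2 µM and at 13.5, 11.2 and 11.8 RPKM at 10 µM. The fall was 2.06-fold at 2 µM (-1.04, SE 0.066, limma adjusted p = 6.92e-05) and 1.68-fold at 10 µM (-0.75, SE 0.081, limma adjusted p = 0.000179). SLC38A5 was at 28.1, 26.3 and 28.7 RPKM at 2 µM and at 36.4, 35.9 and 36.7 RPKM at 10 µM. The 3 libraries of each dose lay close together and all above the untreated level. The rise was 1.73-fold at 2 µM (0.79, SE 0.054, limma adjusted p = 9.50e-05) and 2.26-fold at 10 µM (1.18, SE 0.049, limma adjusted p = 1.45e-06).

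SLC1A4 was at 2.59, 2.89 and 3.02 RPKM at 2 µM and 2.91, 3.09 and 3.60 RPKM at 10 µM, log2 changes of -0.61 and -0.46 from untreated cells. SLC6A9 was at 1.45, 1.90 and 2.20 RPKM at 2 µM and 1.72, 1.94 and 1.96 RPKM at 10 µM, log2 changes of -0.49 and -0.46. SLC43A1 was at 2.55, 2.55 and 3.21 RPKM at 2 µM and 2.84, 2.67 and 2.32 RPKM at 10 µM, which overlapped with untreated cells, and the intervals of its log2 change were -0.35 to 0.16 and -0.41 to 0.079. Small falls also passed at 2 µM for SLC7A1 (-0.23), SLC38A1 (-0.19) and SLC38A2 (-0.16), but none of them passed at 10 µM. In all 7 of the 9 genes passed at 2 µM (6 lower, 1 higher) and 4 at 10 µM (3 lower, 1 higher), against 27.3% and 35.2% of all genes. The median over the members was -0.19 at 2 µM and -0.13 at 10 µM, beside 0.041 and 0.024 over all genes.

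At 2 µM and 24 h the number of calls also moved with single libraries. Without untreated replicate 1 or 3, or Omomyc replicate 1, 4 of the 9 passed. SLC7A11, SLC1A4, SLC38A1 and SLC38A5 passed in all 6 fits with 1 library left out, SLC7A1 in 3, SLC6A9 in 2 and SLC38A2 in 1. At 10 µM the calls of SLC7A11, SLC1A4 and SLC38A5 held in all 6, and that of SLC6A9 in 5.

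**Figure D2:**
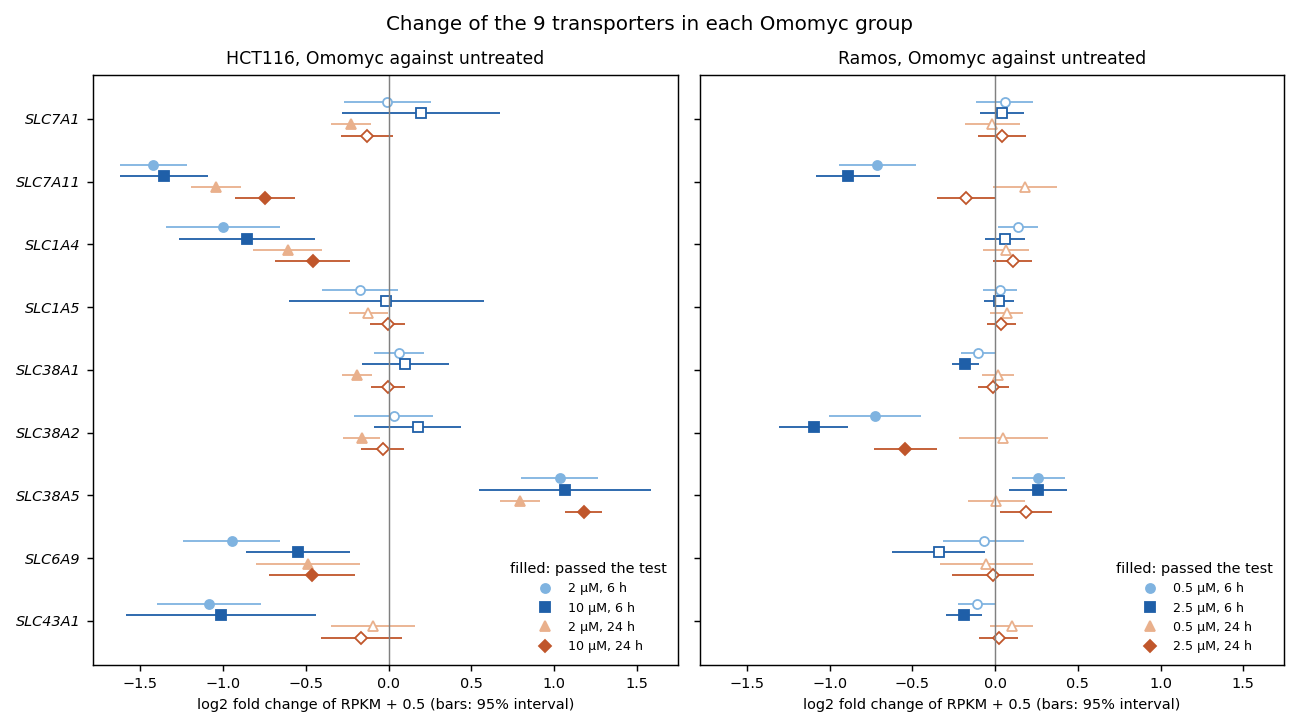
Log2 fold change of each transporter against untreated cells of the same line (x axis, from log2(RPKM + 0.5)), with 95% intervals as bars, for 4 Omomyc groups in HCT116 cells (left) and Ramos cells (right); filled symbols passed at an adjusted p under 0.05. SLC7A11 lies left of 0 in all 4 HCT116 groups, in both 6 h Ramos groups and, without passing, at 2.5 µM and 24 h in Ramos cells (-0.18). SLC38A5 lies between 0.79 and 1.18 in HCT116 cells and between 0.0067 and 0.26 in Ramos cells, and SLC38A2 lies left of 0 in 3 Ramos groups.

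Between 6 and 24 h in HCT116 cells, several of the transporters that were low at 6 h were higher, and so was the median of all genes. At 2 µM SLC43A1 rose by 0.99 (SE 0.16, limma adjusted p = 0.00171), SLC6A9 by 0.46 and SLC7A11 by 0.38, and SLC38A1 fell by 0.25 on the log2 scale. These 4 of 9 genes compare with 40.8% of all genes tested. The median over the members was 0.050, beside 0.158 over all genes. Without replicate 1 of the 6 h group, or replicate 2 or 3 of the 24 h group, 2 of the 9 passed, and without replicate 2 of the 6 h group 6 passed. SLC43A1 and SLC7A11 passed in all 6 fits with 1 library left out, SLC38A1 in 2 and SLC6A9 in 1, and with an equal sum of RPKM the fall of SLC38A1 was 0.073 and did not pass. Over its 15 alternatives the rise of SLC7A11 ran from 0.22 to 0.55 and passed in 14, with limma adjusted p up to 0.0749. At 10 µM only SLC7A11 of the 9 passed (0.61, SE 0.13, limma adjusted p = 0.0310), where 7.86% of all genes passed. The median there was 0.085 over the members and 0.150 over all genes. SLC43A1 was higher in every 24 h library than in every 6 h library at 10 µM too, but did not pass (interval of the log2 change 0.27 to 1.42, adjusted p = 0.0734). Without replicate 3 of 10 µM at 6 h 3 of the 9 passed and without replicate 2 of it 2, whereas none passed without its replicate 1 or any 1 of the 24 h libraries.

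Few or no genes passed between the HCT116 doses, which does not show that the doses acted alike. At 6 h none of the 9 genes passed between 10 and 2 µM, and 0 of 14601 genes passed in all by limma (1242 had an unadjusted p under 0.05, and the share that passed was 0%). Intervals were wide, such as -0.24 to 0.37 for SLC7A11 and -0.51 to 0.58 for SLC38A5. Without replicate 3 of 10 µM at 6 h 93 genes passed in all, and with all 10 groups in 1 fit 1984 did. At 24 h SLC38A5 was higher at 10 than at 2 µM (0.39, SE 0.055, limma adjusted p = 0.0380), 1 of 9 genes where 0.180% of all genes passed. Its 3 libraries at 10 µM all lay above the 3 at 2 µM, but it did not pass in any of the 6 fits that left out 1 library, with adjusted p up to 0.172. SLC7A11 and SLC38A1 were also higher at 10 µM in every library at 24 h without passing (intervals 0.11 to 0.48 and 0.077 to 0.30).

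In Ramos cells after 6 h, SLC38A2 and SLC7A11 fell, and SLC38A5 rose by less than in HCT116 cells. SLC38A2, already low in this line, went from 7.32, 6.68 and 6.67 RPKM to 3.80, 4.80 and 3.42 RPKM at 0.5 µM and to 3.07, 3.01 and 2.78 RPKM at 2.5 µM. SLC7A11 went from 6.69, 6.47 and 6.40 RPKM to 4.29, 3.47 and 3.62 RPKM at 0.5 µM and to 3.36, 3.37 and 3.15 RPKM at 2.5 µM. For both genes every treated library lay below every untreated one. The fall of SLC38A2 was 1.65-fold at 0.5 µM (-0.73, SE 0.12, limma adjusted p = 0.00351) and 2.14-fold at 2.5 µM (-1.10, SE 0.092, limma adjusted p = 0.000113). That of SLC7A11 was 1.64-fold (-0.71, SE 0.10, limma adjusted p = 0.00158) and 1.85-fold (-0.89, SE 0.086, limma adjusted p = 0.000206). Both genes passed in all 15 alternatives at each dose.

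SLC38A5 was at 57.2, 60.8 and 58.5 RPKM at 0.5 µM and at 60.5, 61.7 and 54.4 RPKM at 2.5 µM, against 43.9, 50.3 and 53.4 RPKM in untreated cells. Its log2 change was 0.26 at both doses, and it passed in 2 of the 6 fits with 1 library left out at each. At 2.5 µM SLC38A1 (79.1, 79.3 and 79.1 RPKM, against 89.0 to 90.3) fell by 0.18 and SLC43A1 (29.5, 30.6 and 29.6 RPKM, against 33.1 to 35.4) fell by 0.19 on the log2 scale. With an equal sum of RPKM these falls were 0.040 and 0.052 and did not pass. In all 3 of the 9 genes passed at 0.5 µM (2 lower, 1 higher) and 5 at 2.5 µM (4 lower, 1 higher), against 23.6% and 27.9% of all genes, and without 2.5 µM replicate 1 the number was 3. SLC7A1, SLC1A4, SLC1A5 and SLC6A9 did not pass at either dose. The median over the members was -0.070 at 0.5 µM and -0.18 at 2.5 µM, beside 0.022 and 0.034 over all genes.

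After 24 h in Ramos cells fewer of the changes from untreated cells passed, and among the 9 genes only that of SLC38A2 at 2.5 µM did. At 0.5 µM none of the 9 genes passed, and 2 of 13674 genes did (0.0146%) by limma, while 763 had an unadjusted p under 0.05. SLC38A2 was at 6.48, 6.53 and 8.61 RPKM and SLC7A11 at 7.36, 7.05 and 7.98 RPKM in that group. The SLC38A2 libraries overlapped with untreated ones, and those of SLC7A11 lay above them without passing (interval of the log2 change -0.012 to 0.37). At 2.5 µM SLC38A2 was at 4.65, 4.48 and 4.57 RPKM, a 1.46-fold fall (-0.54, SE 0.084, limma adjusted p = 0.0142). It was the only 1 of the 9 to pass, where 4.61% of all genes passed, and it did not pass when any 1 of the 3 treated libraries was left out (adjusted p 0.0625 to 0.0777). SLC7A11 was at 5.67, 5.63 and 5.85 RPKM, below every untreated library, but did not pass (-0.18, SE 0.077, limma adjusted p = 0.234), and with an equal sum of RPKM its change was 0.016. Under that scaling 5 of the 9 genes and 5362 instead of 627 genes in all passed at 2.5 µM and 24 h. SLC38A2 was then lower and SLC1A4 (0.31), SLC1A5 (0.24), SLC38A5 (0.39) and SLC43A1 (0.22) were higher than in untreated cells. The median over the members as deposited was 0.050 at 0.5 µM and 0.021 at 2.5 µM, beside 0.020 and 0.048 over all genes.

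From 6 to 24 h, SLC7A11 and SLC38A2 rose again in Ramos cells at both doses. SLC7A11 rose by 0.89 (SE 0.10) at 0.5 µM and by 0.71 (SE 0.080) at 2.5 µM, and SLC38A2 by 0.77 (SE 0.14) and 0.55 (SE 0.088), with limma adjusted p between 0.000304 and 0.00356. SLC43A1 rose by 0.21 at each dose, SLC38A1 rose by 0.17 at 2.5 µM and SLC38A5 fell by 0.25 at 0.5 µM. In all 4 of the 9 genes passed at each dose, against 25.4% of all genes at 0.5 µM and 23.0% at 2.5 µM. SLC43A1 at 0.5 µM passed in 3 of 6 fits with 1 library left out, and the others in all 6.

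The comparison of the Ramos doses was added after the values had been seen. At 24 h SLC38A2 (-0.59, SE 0.11, limma adjusted p = 0.0216) and SLC7A11 (-0.36, SE 0.079, limma adjusted p = 0.0389) were lower at 2.5 than at 0.5 µM, 2 of 9 genes where 4.25% of all genes passed. Leaving out any 1 of the 2.5 µM libraries left none of the 9, and leaving out any 1 of the 0.5 µM libraries left SLC38A2. At 6 h none of the 9 passed, where 0.429% of all genes did. The intervals of the log2 difference were -0.65 to -0.094 for SLC38A2 and -0.41 to 0.058 for SLC7A11.

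The responses of the lines were then compared gene by gene, as the change in HCT116 cells minus the change in Ramos cells. At 6 h, with 2 µM in HCT116 and 2.5 µM in Ramos cells, the change of SLC38A2 was higher in HCT116 cells by 1.13 (SE 0.13, limma adjusted p = 8.42e-05) and that of SLC38A5 by 0.78 (SE 0.14). SLC1A4 (-1.06, SE 0.17), SLC43A1 (-0.90, SE 0.13), SLC6A9 (-0.61, SE 0.15) and SLC7A11 (-0.53, SE 0.11) changed to a lower value in HCT116 than in Ramos cells. SLC38A1 also passed at 0.24, but its difference was -0.23 with an equal sum of RPKM. In all 7 of the 9 genes passed, where 40.6% of all genes did.

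At 24 h and the same doses 6 of the 9 passed, where 16.3% of all genes did. The differences were -0.87 (SE 0.081) for SLC7A11, -0.71 (SE 0.086) for SLC1A4, 0.61 (SE 0.090) for SLC38A5 and 0.38 (SE 0.069) for SLC38A2, with smaller ones for SLC7A1 (-0.27) and SLC38A1 (-0.18). With 10 µM in HCT116 cells 5 passed, where 22.5% of all genes did. SLC38A5 differed by 0.99 (SE 0.085, limma adjusted p = 4.51e-05), SLC7A11 by -0.57, SLC1A4 by -0.56, SLC38A2 by 0.51 and SLC6A9 by -0.45. SLC1A5 did not pass in any of the 3, with intervals that lay between -0.46 and 0.070. SLC7A11 and SLC1A4 passed in all 21 alternatives of each comparison. Of 12 fits with 1 library left out, SLC7A1 passed in 4 and SLC38A1 in 6 at 24 h with the nearest doses, and SLC6A9 in 6 at 24 h with the highest doses. With an equal sum of RPKM SLC38A2 did not pass at 24 h (0.13 with 10 µM and 0.032 with 2 µM in HCT116 cells), nor did SLC38A5 in either comparison at 2 µM (0.31 at 6 h and 0.25 at 24 h). Doses in the lines are not matched in effect, and the delivery reagent is described for HCT116 cells alone, so line and delivery cannot be told apart.

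**Figure D3:**
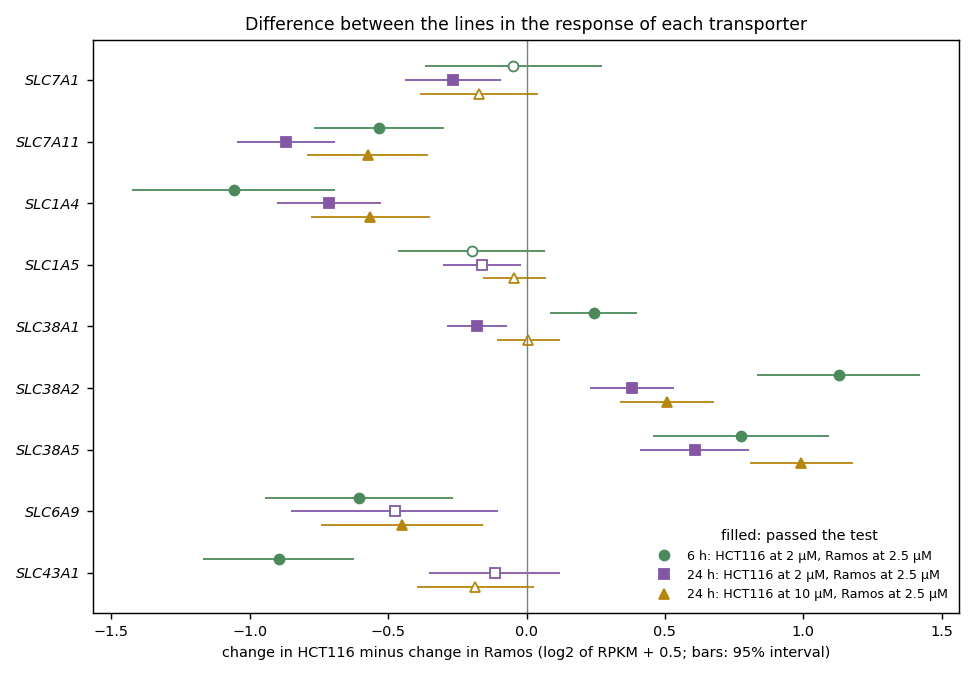
Change in HCT116 cells minus change in Ramos cells for each transporter (x axis, log2 of RPKM + 0.5), with 95% intervals as bars; filled symbols passed at an adjusted p under 0.05. SLC7A11 and SLC1A4 lie between -1.06 and -0.53 and SLC38A2 and SLC38A5 between 0.38 and 1.13 in all 3 comparisons, which share untreated libraries and, in part, treated ones.

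Across all 10 groups, the order of SLC7A11 levels ran from untreated HCT116 cells (20.7 RPKM) over 10 and 2 µM at 24 h (12.2 and 9.79 RPKM), with no overlap between these neighbors, to Ramos cells with 2.5 µM at 6 h (3.29 RPKM). The 3 groups from 7.43 to 7.81 RPKM, both 6 h groups of HCT116 cells and the 0.5 µM, 24 h group of Ramos cells, overlapped. For SLC38A5 the means of all 5 Ramos groups (49.2 to 58.9 RPKM) lay above those of all HCT116 groups, but 1 HCT116 library at 10 µM and 6 h (46.4 RPKM) exceeded 1 untreated Ramos library (43.9 RPKM). Untreated HCT116 cells were lowest, with no overlap. For SLC38A2 the 5 HCT116 groups (172 to 219 RPKM) each overlapped with the next, and the Ramos groups followed from 7.21 down to 2.95 RPKM. Over all 15 libraries of a line, the highest value was 1.11 times the lowest for SLC1A5 in Ramos cells and 2.18 times in HCT116 cells. The widest span was that of SLC43A1 in HCT116 cells, 4.49 times, between 0.716 and 3.21 RPKM.

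For each member with a mean of at least 2 RPKM in a line, the genes with the most similar pattern were found by Pearson's r of log2(RPKM + 0.5) over the 15 libraries, which share group, library and depth, so r is a description. In HCT116 cells SLC7A11 was most like ASNS (r = 0.954), PCK2 (0.953) and IPP (0.951). ASNS makes asparagine and PCK2 is the mitochondrial form of phosphoenolpyruvate carboxykinase. SLC7A1 was most like STC2 (0.954), SLC1A4 like ITM2C (0.947), SLC1A5 like PSAP (0.970), SLC38A1 like XBP1 (0.912), SLC38A2 like RNF145 (0.891), SLC38A5 like CYB561D2 (0.989) and SLC43A1 like CDON (0.984). In Ramos cells SLC7A11 was most like SUB1 (0.991), SLC38A2 like DUSP2 (0.963), SLC38A5 like ABHD14A (0.950), SLC38A1 like NUP160 (0.958) and SLC43A1 like PPP1R16B (0.934). Lower values were found in Ramos cells for SLC1A4 with PRKCSH (0.890), SLC6A9 with PILRB (0.878), SLC7A1 with LIG3 (0.818) and SLC1A5 with ENO3 (0.754). None of the first genes was shared between the lines.

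Of 39 other genes listed as amino acid transporters from the same and neighboring solute carrier families, 19 were tested in HCT116 cells. Membership rests on family, and what each gene carries was not tested. At 10 µM and 24 h 7 rose, none fell and 12 did not pass, a share near the 35.2% of all genes that passed. At 2 µM and 24 h 4 rose and none fell, where 27.3% of all genes passed. At 6 h 2 rose and 7 fell at 2 µM, where 47.3% of all genes passed, 2251 higher and 4633 lower. At 10 µM and 6 h 2 rose and 1 fell, where 30% of all genes passed, 1307 higher and 3132 lower. The largest rises in the list at 10 µM and 24 h included the lysosomal glutamine transporter SLC38A7 (0.59), the leucine transporter SLC43A2 (0.57) and SLC7A6 (0.56). SLC38A9, a lysosomal arginine sensor, rose by 0.34. SLC43A3, listed by its family alone, rose by 0.58. SLC3A2, the heavy chain that SLC7A11 pairs with, went from 157, 164 and 152 RPKM to 184, 181 and 189 RPKM (0.23, limma adjusted p = 0.00614). SLC7A5 (LAT1), another of its light chains, was at 138, 137 and 142 RPKM in untreated cells and at 150, 144 and 157 RPKM at 10 µM and 24 h, and did not pass. In Ramos cells at 2.5 µM none of 14 tested passed at 24 h, where 4.61% of all genes did, and 3 rose and none fell at 6 h, where 27.9% did.

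Genes of amino acid synthesis also fell in HCT116 cells. Of 16 genes of this list, 14 were tested at 10 µM and 24 h, and 11 fell, none rose and 3 did not pass, where 35.2% of all genes passed (median -0.34, beside 0.024 over all genes). ASNS went from 118, 123 and 141 RPKM to 42.7, 43.5 and 41.3 RPKM (-1.57, SE 0.067, limma adjusted p = 1.59e-06). PHGDH and PSAT1, enzymes of serine synthesis, changed by -1.15 and -1.01. At 6 h 12 of the 14 fell at each dose, where 47.3% of all genes passed at 2 µM and 30% at 10 µM. In Ramos cells at 2.5 µM, 10 of 14 fell and 2 rose at 6 h, where 27.9% of all genes passed. At 24 h only PHGDH of the 14 passed (0.22, limma adjusted p = 0.0307), where 4.61% of all genes did.

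Of 8 regulators of the amino acid response, 5 fell and 1 (ATF5, 0.36) rose in HCT116 cells at 10 µM and 24 h, where 35.2% of all genes passed. ATF4 went from 287, 308 and 333 RPKM to 210, 207 and 192 RPKM (-0.61) and TRIB3, a pseudokinase induced by ATF4, changed by -0.81. In Ramos cells at 2.5 µM and 24 h ATF5 fell by 0.31 on the log2 scale and the other 7 did not pass, where 4.61% of all genes did. Of 8 genes of glutathione synthesis and the NRF2 response, to which cystine uptake by SLC7A11 leads, 2 rose and 2 fell in HCT116 cells at 10 µM and 24 h, 4 of 8 beside the same 35.2%, and SLC3A2 is one of the risers and stands in both lists. GCLM, a subunit of the enzyme that starts glutathione synthesis, rose by 0.69 and the quinone reductase NQO1 fell by 0.55. None of the 8 passed in Ramos cells at that time and dose.

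**Figure D4:**
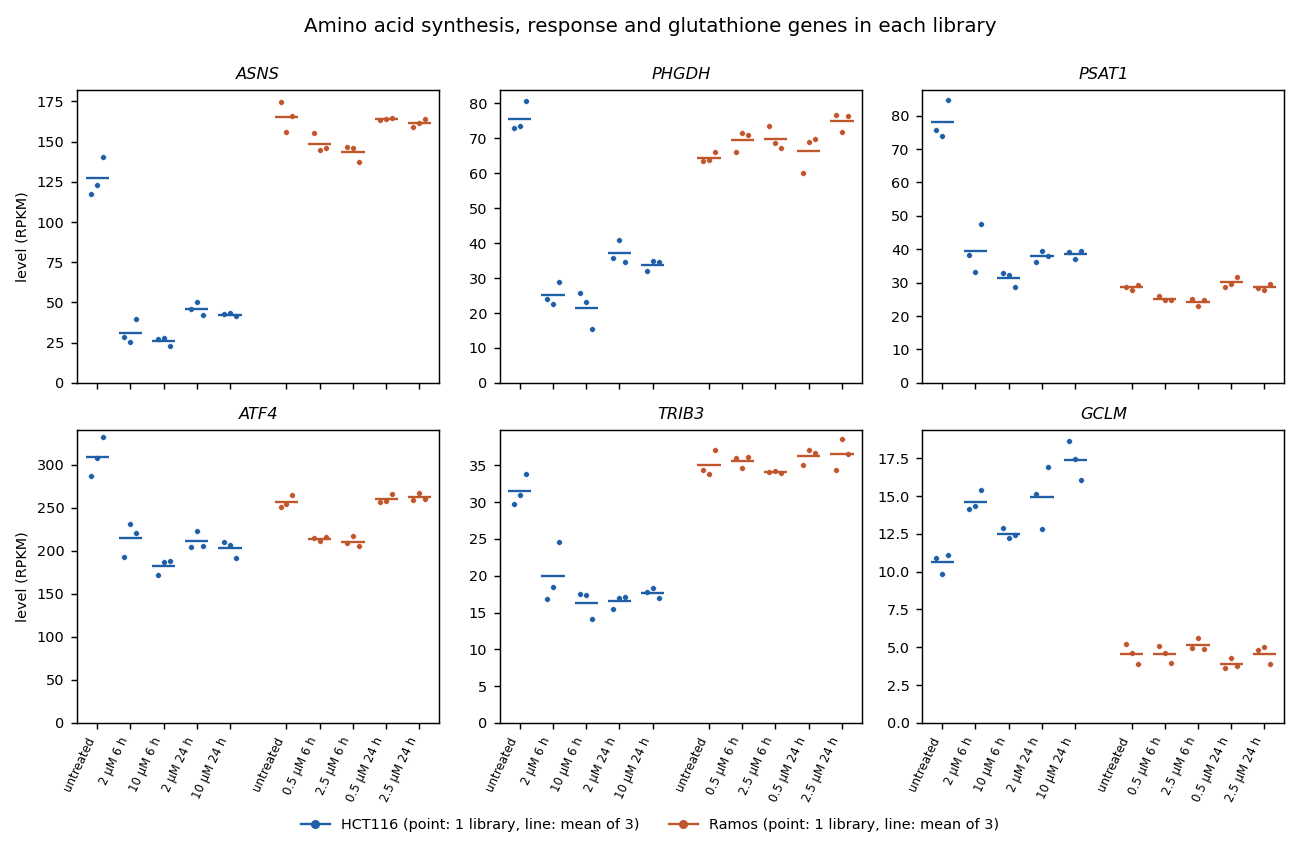
RPKM of ASNS, PHGDH, PSAT1, ATF4, TRIB3 and GCLM (y axis, linear, from 0) in the 10 groups (x axis); a point is 1 library and a line the mean of 3. In HCT116 cells ASNS goes from 127 to 42.5 RPKM at 10 µM and 24 h and GCLM from 10.6 to 17.4 RPKM, while in Ramos cells ASNS is at 165 and 162 RPKM in the untreated and the 2.5 µM, 24 h groups.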

How the data were processed

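RNA-Seq libraries (RNeasy RNA, TruSeq Stranded Total RNA with Ribo-Zero) of 30 samples in 10 groups of 3 were analyzed. The authors deposited RPKM for 57992 genes, and the submitters' processing notes name RSEM. Aligner, version, genome build and annotation are not given in the sources used here. The RPKM are fractional, so reads per library are unknown, no count test or count interval was made, and precision rests on 3 replicates. Replicates correlated at r = 0.973 to 0.996 over 30 pairs. Symbols were joined by Ensembl identifier from GENCODE 29 (57388 matched, 604 not).

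Log2(RPKM + 0.5) was fitted with limma 3.58.1 in R 4.3.3 (eBayes with trend), using the libraries compared and genes with a mean of at least 0.5 RPKM. Genes passed at 0.05 after Benjamini-Hochberg adjustment over all genes tested. Fold changes on this scale understate low genes. The model was tested on simulated data. Deviations of same-numbered replicates did not correlate above 0.1 in all 3 pairs of any comparison, so numbers were not treated as pairs. The 9 members, the lists and the tests were chosen with earlier results of these data known. From the lists, SLC7A5, SLC3A2 and, among genes that passed with a mean of at least 2 RPKM, those with the largest changes at the highest dose and 24 h are named (5 transporters, 3 synthesis genes, 2 of each other list). Alternatives were pseudocounts of 0.1 and 1, no filter or a mean of at least 2 RPKM, an equal sum of RPKM, median-ratio scaling, eBayes without trend, a replicate block, all 10 groups in 1 fit, and each library left out. One marker gene and one overlapping gene are not reported here.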

Additional observations from a re-analysis of the deposited data

Results flagged for a closer look

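For 8 of the 9 transporters the change under Omomyc differed between HCT116 and Ramos cells in at least 1 of 3 comparisons. The test was of the difference itself (limma, HCT116 minus Ramos, log2 scale). How many of all genes passed in at least 1 of the 3 was not counted, so the 8 of 9 has no background beside it. At 6 h 3 of the 9 passed as higher and 4 as lower in HCT116 cells, where 40.6% of all genes passed. At 24 h these counts were 2 and 4 with the nearest doses (16.3% of all genes) and 2 and 3 with the highest doses (22.5%). The cystine transporter SLC7A11 differed by -0.53 at 6 h, by -0.87 at 24 h with the nearest doses and by -0.57 at 24 h with the highest doses. SLC1A4 differed by -1.06, -0.71 and -0.56 in the same order. SLC38A2, which fell in Ramos cells, differed by 1.13, 0.38 and 0.51, and SLC38A5, which rose more in HCT116 cells, by 0.78, 0.61 and 0.99. SLC6A9 differed by -0.61 at 6 h and by -0.45 at 24 h with the highest doses. SLC38A1 differed by 0.24 at 6 h and by -0.18 at 24 h with the nearest doses. SLC43A1 differed at 6 h (-0.90) and SLC7A1 at 24 h with the nearest doses (-0.27). With 1 of 12 libraries left out, SLC7A1 passed in 4 fits and SLC38A1 in 6 at 24 h with the nearest doses, and SLC6A9 in 6 at 24 h with the highest doses. With an equal sum of RPKM SLC38A1 at 6 h was -0.23. Under that scaling SLC38A2 did not pass at 24 h (0.13 with the highest and 0.032 with the nearest doses). Nor did SLC38A5 pass at 6 h (0.31) or at 24 h with the nearest doses (0.25). These comparisons share untreated libraries, and line and delivery of Omomyc cannot be told apart.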

How the results depend on the processing

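Of the 9 transporters, SLC7A11 kept its fall in all 4 HCT116 comparisons and both 6 h Ramos comparisons under every alternative listed in the processing section, and the 3 changes of direction among fold changes printed in the text came with an equal sum of RPKM, where SLC7A11 in Ramos cells at 2.5 µM and 24 h was 0.016, SLC38A1 between untreated lines 0.23 (limma adjusted p = 0.0275, range of its alternatives 2.14e-05 to 0.0275) and the line difference of SLC38A1 at 6 h -0.23. Of 106 values of the 9 genes that did not pass and are given by levels or intervals, 25 changed sign with an equal sum, 15 with median-ratio scaling and 42 in at least 1 fit with a library left out. Of these, SLC38A1 (-0.27) and SLC38A2 (-0.31) at HCT116 2 µM 6 h and the line difference of SLC38A1 at 24 h and the highest dose (-0.39) then passed with an equal sum, and SLC1A5 at HCT116 10 µM 6 h (0.30) passed without Omomyc replicate 3. The cause was not tested. Depth is unknown, so low levels such as those of SLC43A1 and SLC6A9 in HCT116 cells have no counting error attached. The fit of Ramos doses and its alternatives were chosen after seeing the data. Where a library is left out of a group, the spread is pooled over the groups fitted.

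The number of the 9 genes that passed moved by over 1.5 times in the following cases. With an equal sum it was 9 at HCT116 2 µM 6 h, 5 at Ramos 2.5 µM 24 h, 2 for HCT116 10 µM between times, 0 between HCT116 doses at 24 h and 8 for the line difference at 24 h and the highest dose. Without a filter it was 3 at HCT116 10 µM 6 h and 0 at Ramos 2.5 µM 24 h, for HCT116 10 µM between times and between doses at 24 h in both lines. Without the trend it was 3 at Ramos 2.5 µM 6 h and 0 between doses at 24 h in both lines. A filter at a mean of 2 RPKM, which removes SLC6A9 and SLC43A1 there, left 2 for HCT116 2 µM between times, and median-ratio scaling left 0 for HCT116 10 µM between times. With all 10 groups in 1 fit it was 3 for HCT116 10 µM between times, 2 for each Ramos dose between times, 1 between HCT116 doses at 6 h, 0 between them at 24 h and 2 for the line difference at 24 h and nearest dose. With 1 library left out it ran from 2 to 8 at HCT116 10 µM 6 h, 4 to 8 at HCT116 2 µM 24 h, 3 to 5 at Ramos 2.5 µM 6 h, 0 to 1 at Ramos 2.5 µM 24 h, 2 to 6 and 0 to 3 for HCT116 2 and 10 µM between times and 0 to 1 between Ramos doses at 24 h, and it was 0 between HCT116 doses at 24 h.

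The replicate numbers share only a name here. With them as a replicate block, 0 of the 9 passed for HCT116 10 µM between times and 1 between Ramos doses at 24 h, and the genes called in all were 197 at Ramos 2.5 µM 24 h, 256 for HCT116 10 µM between times, 2 between HCT116 doses at 6 h, 1238 for the line difference at 24 h and nearest dose, and 2 and 366 between Ramos doses at 6 and 24 h.

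The number of all genes that passed moved likewise. With an equal sum it was 7235 at HCT116 10 µM 6 h, 4 and 5362 at Ramos 0.5 and 2.5 µM 24 h, 47 between HCT116 doses at 24 h, 33 and 2567 between Ramos doses at 6 and 24 h, and 6792, 6397 and 9881 for the line differences at 24 h with the highest and nearest dose and at 6 h. With all 10 groups in 1 fit it was 7775 at HCT116 10 µM 6 h, 2692 at HCT116 2 µM 24 h, 5 and 408 at Ramos 0.5 and 2.5 µM 24 h, 5872 for HCT116 10 µM and 1433 for Ramos 2.5 µM between times, 1984 and 41 between HCT116 doses and 13 and 373 between Ramos doses at 6 and 24 h, and 2241 and 1338 for the line differences at 24 h. Without a filter it was 2282 at HCT116 2 µM 24 h, 2008 at Ramos 0.5 µM 6 h, 0 and 84 at Ramos 0.5 and 2.5 µM 24 h, 296, 2307 and 2040 between times for HCT116 10 µM and Ramos 0.5 and 2.5 µM, 5 between HCT116 doses at 24 h, and 0 and 65 between Ramos doses. A filter at a mean of 2 RPKM gave 1 at Ramos 0.5 µM 24 h and 91 between Ramos doses at 6 h, and median-ratio scaling gave 346 at Ramos 2.5 µM 24 h. Without the trend it was 24 at Ramos 2.5 µM 24 h, 4 between HCT116 doses at 24 h, and 0 and 54 between Ramos doses. With 1 library left out it ran from 1813 to 7565 at HCT116 10 µM 6 h, 2167 to 3665 at HCT116 2 µM 24 h, 1853 to 3012 and 2446 to 3703 at Ramos 0.5 and 2.5 µM 6 h, 1 to 4 and 60 to 929 at Ramos 0.5 and 2.5 µM 24 h, 161 to 3506 for HCT116 10 µM and 2256 to 2944 for Ramos 0.5 µM between times, 0 to 93 and 9 to 24 between HCT116 doses at 6 and 24 h, 1627 to 2505 for the line difference at 24 h and nearest dose, and 0 to 18 and 142 to 645 between Ramos doses at 6 and 24 h.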

Other observations

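The cells also differed in genes around these transporters before treatment. All 8 genes of glutathione synthesis and the NRF2 response were higher in untreated HCT116 than in untreated Ramos cells (median log2 difference 1.35, beside 0.086 over all genes, with 84.6% of all genes passing). Of 20 genes tested from the list of other transporters, 10 were higher and 5 lower in HCT116 cells, and of 15 synthesis genes 8 were higher and 7 lower. Between 6 and 24 h in Ramos cells, 10 of 14 synthesis genes rose at each dose, and 2 fell at 0.5 µM and 1 at 2.5 µM, where 25.4% and 23.0% of all genes passed.

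Among the 8 transporters with a mean of at least 2 RPKM in HCT116 cells (all but SLC6A9), its libraries ranked SLC7A11 and SLC1A4 most alike (Pearson's r = 0.911 over 15 libraries). In Ramos cells SLC7A11 was most like SLC38A1 (0.915) and SLC38A2 (0.912), and ran opposite to SLC38A5 (-0.774). These libraries share their groups, so the values are descriptions.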
